A study of Mus musculus with 12 samples.

Results

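Aminoacyl-tRNA synthetases join each amino acid to its own transfer RNA, and mammalian cells carry 1 set for cytosolic ribosomes and another, encoded in the nucleus and imported, for mitochondrial ribosomes. The transcripts of these enzymes were followed in mouse embryonic fibroblasts (MEFs) labelled as wild-type or knockout for Sirt3, a mitochondrial deacetylase. Members were every protein-coding gene whose symbol is an amino acid letter followed by "ars", with or without 1 or 2, together with Farsa, Farsb, Fars2, Tarsl2 and the scaffold proteins Aimp1, Aimp2 and Eef1e1. This gave 40 of the 34866 genes in the table: 20 cytosolic synthetases, 17 mitochondrial synthetases, recognised by the suffix 2, and 3 scaffold proteins. The rule reads gene names and not levels, but the set was taken up with earlier results of these data known. All 40 genes passed the filter of a mean of at least 1 TPM (transcript abundance scaled to a fixed library total, a level corrected for transcript length and library size). Eprs, the fused glutamyl-prolyl synthetase, is spelled differently and was not matched, so it is given beside the cytosolic enzymes but not counted among them.

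Polyadenylated RNA was sequenced from 4 groups of 3 libraries each: male WT, labelled male KO, female WT and labelled female KO. The WT cells came from 129S1/SvImJ mice and the KO cells from Sirt3-/- mice, all from individual embryos of 13 days. All 4 groups shared immortalisation with an SV40 T-antigen plasmid, and RNA was taken at passage 6, 48 h after seeding. By the study's methods, established lines were plated in triplicate wells before extraction, so p-values measure only the spread between 3 wells of a group, which is technical. The number of embryos or lines behind a group was not given in the sources used here, so a difference of line cannot be told apart from one of sex or genotype.

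Charging a transfer RNA is the step at which the genetic code is read into amino acids, and the cytosolic enzymes fall into class I and class II by the fold of their catalytic domain. Several cytosolic synthetases sit together in a multi-tRNA-synthetase complex held by Aimp1, Aimp2 and Eef1e1, while the rest act alone. When charging falls behind, uncharged tRNA activates the kinase Gcn2 (Eif2ak4), which slows initiation and lets the factor Atf4 be translated. Atf4 in turn is known to raise genes of amino acid synthesis, amino acid transport and cytosolic charging. Gars and Kars each make the cytosolic and the mitochondrial form of their enzyme from a single gene, so both stand in the cytosolic list although they also serve mitochondria.

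Between 12256 and 12637 genes reached 1 TPM in a library, and the number of reads behind the values is unknown. Sirt3 itself was listed at 7.61 ± 1.301 TPM in male WT, 10.3 ± 1.19 TPM in labelled male KO, 7.898 ± 0.695 TPM in female WT and 8.27 ± 0.749 TPM in labelled female KO (SD, n = 3). Its mRNA was not lower under the KO label in either sex (limma, adjusted p = 0.0981 in males and 0.772 in females), so the genotype is given by its label throughout. A gene-level value cannot show whether an exon is missing. The study also shows an immunoblot of Sirt3 protein, which was not used here. Of 10 fibroblast markers, 9 reached 1 TPM, and their sum was 9087 to 10204 TPM in male WT, 11429 to 12126 TPM in labelled male KO, 7937 to 8124 TPM in female WT and 9710 to 10044 TPM in labelled female KO. Of 5 epithelial markers, 2 reached 1 TPM, and their sum also went with the KO label, at 9.47 to 10.6 TPM in male WT against 0.603 to 1.12 TPM in labelled male KO, and at 6.54 to 7.99 TPM in female WT against 1.91 to 2.25 TPM in labelled female KO. The summed neural markers were lower under the KO label too, at 76.1 to 77.4 TPM in male WT against 53.9 to 64.4 TPM in labelled male KO, and at 95.9 to 105 TPM in female WT against 58.9 to 70.5 TPM in labelled female KO. Endothelial markers summed to 1.65 to 2.004 TPM in male WT, 1.42 to 1.61 TPM in labelled male KO, 4.62 to 5.68 TPM in female WT and 1.86 to 2.32 TPM in labelled female KO. Muscle markers summed to 5.71 to 6.603 TPM in female WT and to 0 to 0.344 TPM in the other groups. Haematopoietic markers summed to 4.18 to 11.4 TPM, with overlap between WT and labelled KO in both sexes. Their part in the results was not tested.

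The cytosolic enzymes were the abundant ones. Averaged over the 12 libraries, their levels ran from 9.67 TPM for Tarsl2, a second threonyl-tRNA synthetase, to 286 TPM for Nars, the asparaginyl enzyme, with a median of 132 TPM. Nars, Sars (seryl, 286 TPM), Vars (valyl, 269 TPM), Kars (lysyl, 267 TPM) and Gars (glycyl, 261 TPM) formed an upper group whose libraries overlapped in level, well above Aars (alanyl) at 171 TPM. Apart from Lars2, the mitochondrial enzymes lay between 3.51 TPM for Mars2 and 49.98 TPM for Yars2, the methionyl and tyrosyl enzymes, with a median of 17.9 TPM. For 14 amino acids both forms were matched, and in 13 of the 14 pairs the cytosolic transcript was the higher, by 2.52 times for Tars over Tars2 to 35.9 times for Mars over Mars2.

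Lars2, the mitochondrial leucyl enzyme, was the exception. It was listed at 827, 702 and 640.2 TPM in male WT, 706, 350.2 and 774 TPM in labelled male KO, 807, 1093 and 918 TPM in female WT and 676, 907 and 622 TPM in labelled female KO. Replicate 2 of labelled male KO stood far below the other libraries of its group. A Lars2 transcript shares 72 bases at 98.6% identity with the noncoding gene Gm15564, which is not a row of the table, so reads of the noncoding RNA could have been credited to Lars2 and its level is uncertain. Between the male groups limma gave a log2 change of -0.32 ± 0.29 for it, at an adjusted p of 0.474, and 0.040 without that library.

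In males, 6 cytosolic synthetase transcripts were higher under the KO label, mitochondrial ones were not called in either direction, and 1 scaffold transcript was lower. Of the 20 cytosolic synthetases, 6 were higher in labelled male KO than in male WT (limma on log2(TPM + 1), Benjamini-Hochberg adjusted p under 0.05 over 12504 genes) and 0 were lower. In 1 fit of all 12 libraries Rars was called as well, in the lower direction. Across all genes tested, 21.6% were called in this comparison, 10.7% higher and 10.9% lower. The cytosolic members had a median log2 fold change of 0.081, against -0.015 for all genes tested, and 13 of the 20 changes were positive. The 6 that rose were Gars, Lars, Aars, Wars, Nars and Sars, by 1.12 to 1.31 times in mean TPM.

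Gars, the glycyl-tRNA synthetase (chr6:55038007-55079500 on GRCm38, plus strand), showed the largest rise in males. Its level was 225, 232 and 228 TPM in male WT and 304, 297 and 295 TPM in labelled male KO, groups that lay far apart. The log2 fold change was 0.38 ± 0.032 (SE), with an adjusted p of 3.01e-04 by limma. In females the 3 WT libraries had 267, 278 and 264 TPM and the 3 labelled KO libraries 249, 249 and 247 TPM, so that the labelled KO was here the lower group. Male WT was thus the lowest and labelled male KO the highest of the 4 groups, with both female groups between them.

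Lars, the cytosolic leucyl enzyme and a member of the complex, moved in the same way in males. It went from 105, 107 and 108 TPM in male WT to 136, 140.4 and 134 TPM in labelled male KO, a log2 fold change of 0.35 ± 0.038 (limma, adjusted p = 9.61e-04). Its female levels were 117, 119 and 122 TPM in WT and 109.9, 111 and 115 TPM in labelled KO. The female groups did not overlap either, but the difference missed the threshold (limma, -0.091 ± 0.035, adjusted p = 0.158).

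Aars, the alanyl enzyme (chr8:111033144-111057664, plus strand), was at 149, 166 and 158 TPM in male WT and at 188, 202 and 198 TPM in labelled male KO (limma, 0.32 ± 0.052, adjusted p = 0.00609). Every labelled male KO library exceeded every other library of the series. In females, WT at 159, 168 and 163 TPM and labelled KO at 172, 163 and 164 TPM overlapped. Part of the Aars level could come from reads of Exosc6, whose sequence an Aars transcript holds. Wars, the tryptophanyl enzyme (chr12:108860030-108894174, minus strand), had 71.1, 74.5 and 76.1 TPM in male WT and 89.9, 88.4 and 89.5 TPM in labelled male KO (limma, 0.27 ± 0.044, adjusted p = 0.00581). Its female groups overlapped, at 69.3, 73.3 and 75.2 TPM in WT and 72.4, 74.7 and 78.6 TPM in labelled KO.

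Nars and Sars are the most abundant cytosolic members, and both were called in males. Nars was at 275, 269 and 276 TPM in male WT and 321, 320.3 and 316 TPM in labelled male KO, with 0.22 ± 0.03 and an adjusted p of 0.0025 by limma. In females it was at 288, 289.6 and 289 TPM in female WT and 265, 267 and 261 TPM in labelled female KO. The 4 groups did not overlap for Nars. Sars was at 261, 283 and 275 TPM in male WT and 316, 299 and 305 TPM in labelled male KO (limma, 0.17 ± 0.042, adjusted p = 0.0294). Its adjusted p lay between 0.077 and 0.089 when male WT replicate 1 or 3, or labelled male KO replicate 1 or 3, was left out. Across the alternatives to the processing, Sars lost its male call under 7 of 14.

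**Figure D1:**
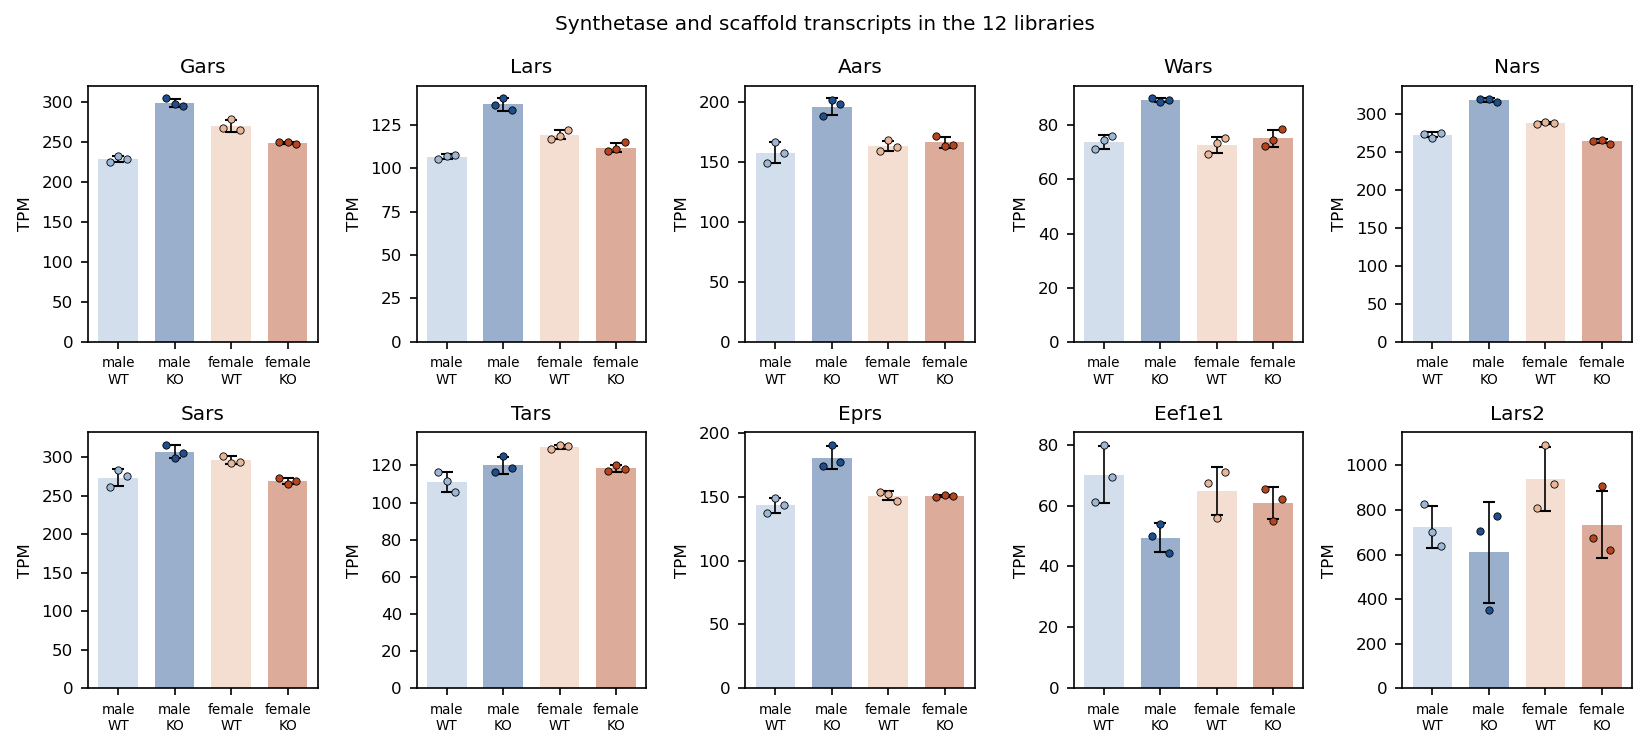
Level in TPM (vertical axes, from 0) of 10 genes in the 12 libraries, with bars for the mean of 3 libraries, lines for the SD and points for single libraries. Labelled male KO stands above male WT for Gars, Lars, Aars, Wars, Nars, Sars and Eprs, stands below it for Eef1e1, and Lars2 varies widely within groups.

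Eprs, the fused enzyme outside the symbol pattern, was also higher in males. It was listed at 137, 149 and 143 TPM in male WT and 174, 191 and 177 TPM in labelled male KO (limma, 0.33 ± 0.051, adjusted p = 0.00447). The female groups had 154, 152 and 147 TPM in WT and 149.97, 152 and 151 TPM in labelled KO, and overlapped. Counted with Eprs, 7 of 21 cytosolic synthetases rose in males.

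The other 14 cytosolic members were not called in males. Their log2 fold changes ran from -0.21 for Qars, the glutaminyl enzyme, to 0.17 for Cars, the cysteinyl enzyme. The smallest change was that of Hars, the histidyl enzyme, at 126, 131 and 126 TPM in male WT and 123, 130.2 and 125 TPM in labelled male KO (-0.022 ± 0.042). Farsb, the beta subunit of the phenylalanyl enzyme, was at 98.3, 88.01 and 90.6 TPM and 94.4, 96.6 and 93.4 TPM (0.04 ± 0.052). Iars, the isoleucyl enzyme, was at 132, 137 and 130.4 TPM and 135, 144 and 139 TPM (0.062 ± 0.043). For these 3 genes the male groups overlapped. Of the 14, 4 had male groups that did not overlap: Farsa, Tarsl2, Rars and Yars. The share of all genes tested with such groups was not counted, so nothing is read from this count. Farsa, the alpha subunit that works with Farsb, had -0.07 ± 0.038. Rars, the arginyl enzyme of the complex, was listed at 158, 148 and 158 TPM in male WT and 135, 145 and 138 TPM in labelled male KO, with -0.15 ± 0.046 and an adjusted p of 0.0635 by limma. Yars, the tyrosyl enzyme, had 147, 154 and 144 TPM and 159, 154 and 166 TPM, with 0.11 ± 0.045 and an adjusted p of 0.14 by limma.

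The cytosolic members can be divided by the complex. Of the 13 cytosolic synthetases outside the complex, 5 rose in males, with a median log2 fold change of 0.11 over the 13. Of the 7 inside it, 1 rose, namely Lars, with a median of -0.064 over the 7, and Eprs, also of the complex, is not counted in it. The difference between these lists was not tested. By fold, 2 of 9 class I enzymes (Lars and Wars) and 4 of 11 class II enzymes (Gars, Aars, Nars and Sars) were called, all higher. Across all genes tested, 10.7% were called higher in this comparison. The difference between the folds was not tested either.

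All 3 scaffold proteins had negative changes in males. Eef1e1 (chr13:38644207-38659058, minus strand), which ties methionyl-tRNA synthetase into the complex and is also known as a tumour suppressor linked to DNA damage signalling, fell in labelled male KO. Its level was 61.1, 79.99 and 69.3 TPM in male WT and 50.2, 53.8 and 44.4 TPM in labelled male KO, with no overlap (limma, -0.49 ± 0.11, adjusted p = 0.0204). In females it was 67.3, 56.03 and 71.2 TPM in WT and 65.4, 54.95 and 62.3 TPM in labelled KO, overlapping. The male call was lost by small margins: leaving out male WT replicate 2 or 3, or labelled male KO replicate 1 or 3, gave adjusted p values of 0.051 to 0.066, and testing all genes without the filter gave 0.085.

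Aimp2, which gathers the subunits of the complex, was at 124, 132 and 128 TPM in male WT and 118, 117 and 111 TPM in labelled male KO. The groups did not overlap, and the log2 fold change of -0.15 ± 0.045 had an adjusted p of 0.0541 by limma. Part of an Aimp2 transcript lies opposite Eif2ak1 on the other strand, and 488 bases are shared, so reads of these genes could be split between them. Aimp1, which binds arginyl-tRNA synthetase and is also secreted as a cytokine, was at 156, 159.98 and 148 TPM and 148, 142 and 139 TPM (limma, -0.11 ± 0.045, adjusted p = 0.138), and its male groups overlapped.

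Among the 17 mitochondrial synthetases, 0 were called in labelled male KO by limma, and 2 had an unadjusted p under 0.05. Their median log2 fold change was -0.058, or -0.036 without Lars2, and 7 of 17 changes were positive. The range ran from -0.32 for Lars2 to 0.20 for Nars2, the asparaginyl enzyme. Yars2 had the adjusted p nearest to the threshold, at 50.6, 51.8 and 51.6 TPM in male WT and 46.01, 41.7 and 48.2 TPM in labelled male KO (limma, -0.18 ± 0.064, adjusted p = 0.0944), without overlap. Cars2, the cysteinyl enzyme, was on the other side, at 20.9, 20.9 and 20.04 TPM and 22.9, 22.7 and 23.9 TPM (limma, 0.16 ± 0.063, adjusted p = 0.116).

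The mitochondrial transcripts were measured less precisely. The median SE of a log2 fold change was 0.11 for the 17 mitochondrial members and 0.046 for the 20 cytosolic ones in males, so that changes of the size seen in the cytosolic list would be harder to detect among them. Vars2, the valyl enzyme, is an example, with 17.5, 34.6 and 17.5 TPM in labelled male KO against 20.3, 24.9 and 19.6 TPM in male WT, and replicate 2 of labelled male KO alone above all male libraries.

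For 5 of the 6 cytosolic enzymes that rose in males a mitochondrial counterpart was matched. The male log2 fold changes were 0.32 for Aars and 0.11 for Aars2, 0.27 for Wars and -0.058 for Wars2, and 0.22 for Nars and 0.20 for Nars2. They were 0.17 for Sars and -0.15 for Sars2, and 0.35 for Lars and -0.32 for Lars2. No counterpart was called, and the differences within pairs were not tested. Gars has no separate mitochondrial gene.

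**Figure D2:**
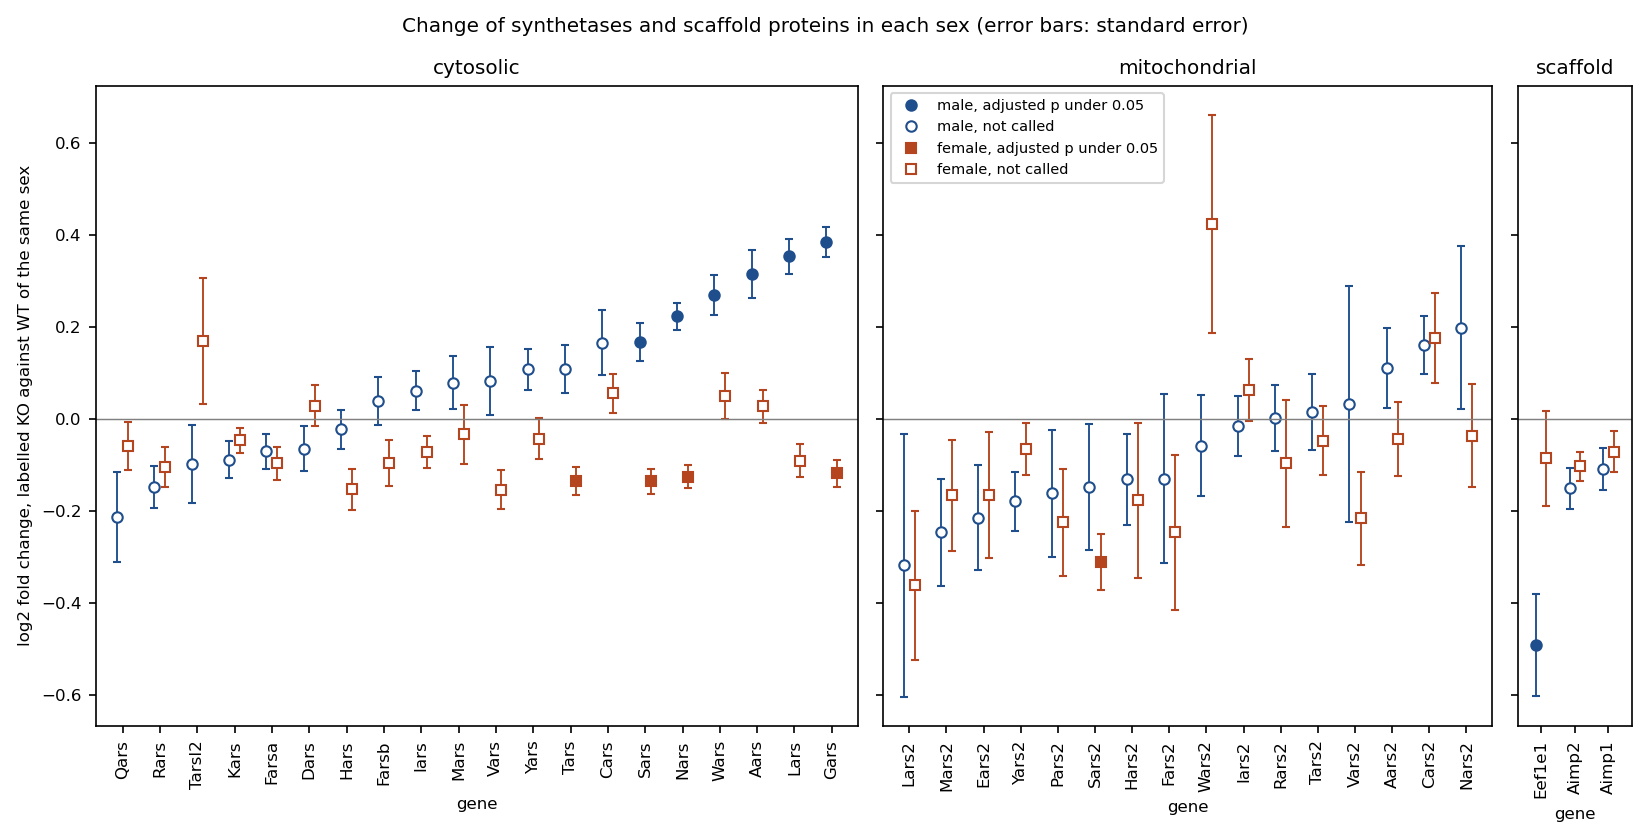
Log2 fold change (vertical axis) of the members other than 1 mitochondrial synthetase between labelled KO and WT in males (blue circles) and in females (orange squares), ordered by the male change within each class. Lines are standard errors and filled symbols have an adjusted p under 0.05. In males 6 cytosolic genes are filled above 0 and Eef1e1 is filled below 0. In females 4 cytosolic genes and Sars2 are filled below 0.

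In females the called cytosolic transcripts were lower under the KO label, by smaller amounts. Of the 20 cytosolic synthetases, 4 fell in labelled female KO and 0 rose, where 11.5% of all genes were called, 5.63% higher and 5.84% lower. The median log2 fold change was -0.081, against -0.023 for all genes tested, and 15 of the 20 changes were negative. The 4 were Sars, Tars, Nars and Gars, all class II enzymes outside the complex.

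Sars was at 301, 292 and 294 TPM in female WT and 273, 266 and 269 TPM in labelled female KO (limma, -0.14 ± 0.027, adjusted p = 0.0241). Tars, the threonyl enzyme (chr15:11382301-11399665, minus strand), was at 129, 131 and 130.4 TPM and 117, 120.3 and 118 TPM (limma, -0.13 ± 0.03, adjusted p = 0.0355). Both pairs of groups were apart, and the mean TPM in labelled KO was 0.91 of that in WT for Sars and 0.91 for Tars. For Nars, with levels given above, the log2 fold change was -0.13 ± 0.024 (limma, adjusted p = 0.0221). For Gars it was -0.12 ± 0.03 (limma, adjusted p = 0.0498), at the edge of the threshold.

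These female calls were fragile. None of the 4 was called when any 1 of the 6 female libraries was left out, although Vars, the valyl enzyme, was then called without labelled female KO replicate 1, and after median-of-ratios scaling of the TPM columns, 0 were called. With all libraries, Vars and Hars had the most negative changes of the list and were not called (limma, -0.15 ± 0.041, adjusted p = 0.0623, and -0.15 ± 0.044, adjusted p = 0.0766).

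Of the mitochondrial synthetases, 1 of 17 fell in labelled female KO, a share near the 5.84% of all genes called lower. Sars2, the seryl enzyme, was at 25.1, 24.9 and 25.6 TPM in female WT and 21.1, 19.2 and 20.2 TPM in labelled female KO, with no overlap (limma, -0.31 ± 0.061, adjusted p = 0.0223). In males its groups overlapped, at 23.99, 28.9 and 24.1 TPM in WT and 19.00, 27.03 and 23.6 TPM in labelled KO. The female call was lost, at adjusted p of 0.065 to 0.079, without any 1 of the female WT libraries or without labelled female KO replicate 2 or 3. The median log2 fold change of the mitochondrial list was -0.097 in females, or -0.081 without Lars2. Wars2 had the largest positive value, 0.42 ± 0.24, with 7.44, 5.67 and 12.1 TPM in labelled female KO and 5.602, 5.43 and 6.17 TPM in female WT, and replicate 3 of labelled female KO alone stood apart. No scaffold protein was called in females by limma, and 1 had an unadjusted p under 0.05. The values were -0.071 ± 0.045 for Aimp1, -0.10 ± 0.032 for Aimp2 and -0.086 ± 0.10 for Eef1e1.

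The interaction asked directly whether the change under the KO label differed between the sexes. Here 7 of 20 cytosolic synthetases passed, all with the more positive change in males, against 13.0% of all genes, made up of 6.7% positive and 6.33% negative. The largest difference was that of Gars, 0.50 ± 0.041 on the log2 scale (limma, adjusted p = 9.77e-06), followed by Lars at 0.45 ± 0.048 (adjusted p = 8.69e-05) and Nars at 0.35 ± 0.034 (adjusted p = 3.50e-05). In males Tars was at 117, 111 and 106 TPM in WT and 116, 125 and 119 TPM in labelled KO, which overlapped. Sars had 0.30 ± 0.049, Aars 0.29 ± 0.064, Tars 0.24 ± 0.059 and Wars 0.22 ± 0.064, with adjusted p between 0.0015 and 0.0444.

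Gars, Nars and Sars were called in both sexes and in opposite directions. Lars, Aars and Wars were called in males only by the within-sex tests, and Tars in females only, but for these 4 the interaction also passed. Wars kept the interaction call without female WT replicate 1 or labelled female KO replicate 3, and lost it when any other single library was left out, at adjusted p of 0.051 to 0.10. Median-of-ratios scaling and quantile scaling also removed the interaction call of Wars. Eprs passed as well, at 0.33 ± 0.059 (adjusted p = 0.0029). The remaining 13 cytosolic members had differences from -0.27 for Tarsl2 to 0.24 for Vars.

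Of the 17 mitochondrial synthetases, 0 passed the interaction by limma and 0 had an unadjusted p under 0.05. Their median difference was 0.045, against 0.13 for the cytosolic list and 0.005 for all genes tested. The median SE of the difference was 0.16 for the mitochondrial and 0.064 for the cytosolic list. Eef1e1 had the largest negative value among the scaffold proteins, -0.41 ± 0.16, with an adjusted p of 0.144.

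**Figure D3:**
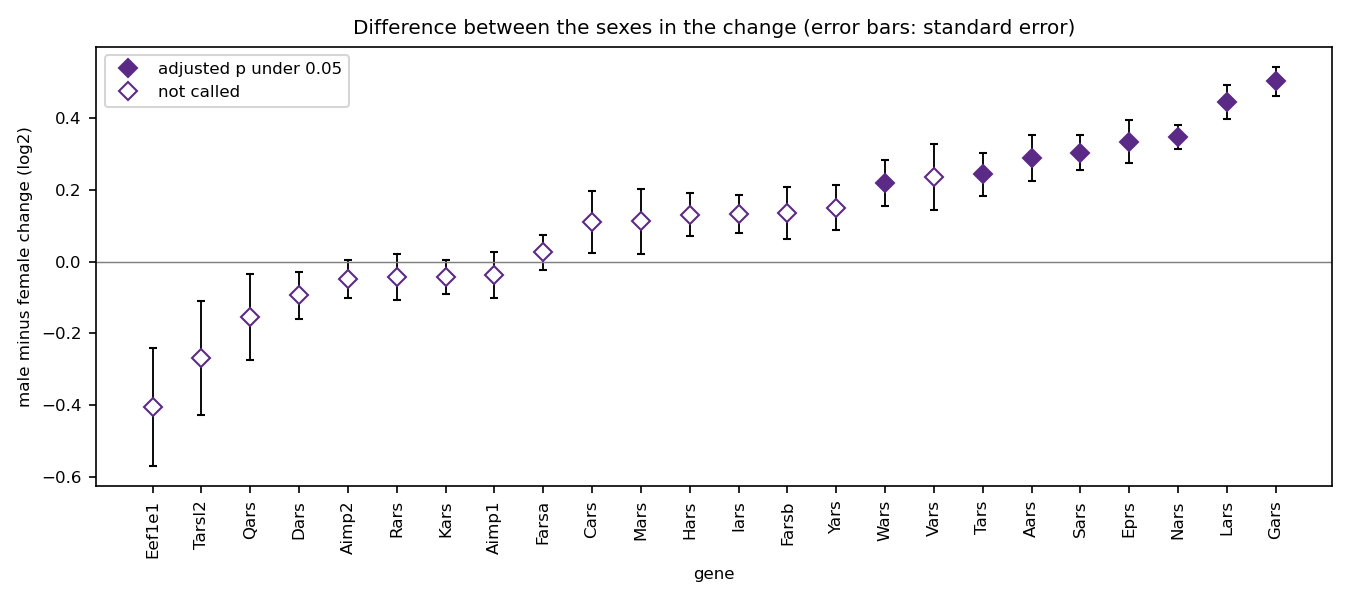
Difference between the male and the female log2 fold change (vertical axis) for the 20 cytosolic synthetases, the 3 scaffold proteins and Eprs, with standard errors. The 8 filled symbols, from Wars at 0.22 to Gars at 0.50, have an adjusted p under 0.05 and all lie above 0.

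Males and females were also compared within each genotype. Among WT, 3 of 20 cytosolic synthetases were lower in males than in females and 0 were higher, where 12.8% of all genes were called, 6.26% higher in males and 6.56% lower, so that the share of members called was near that of all genes. These were Gars (limma, -0.24 ± 0.033, adjusted p = 0.00465), Tars (-0.22 ± 0.044, adjusted p = 0.0187) and Lars (-0.16 ± 0.035, adjusted p = 0.0291). Leaving out single libraries left 1 or 2 calls, with 1 left without male WT replicate 2 or without any female WT library, and Gars was called each time. Of the mitochondrial members 0 were called by limma, and 2 had an unadjusted p under 0.05.

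Among labelled KO, 7 of 20 cytosolic synthetases were higher in males and 0 were lower, where 16.6% of all genes were called, 8.17% higher and 8.39% lower. The log2 differences were 0.29 for Lars, 0.27 for Nars, 0.26 for Gars, 0.24 for Wars, 0.24 for Aars, 0.19 for Sars and 0.18 for Cars. The first 6 had adjusted p of 8.46e-04 to 0.0114 by limma, while Cars, at 0.0397, lost its call when any single library was left out. Of the mitochondrial members 0 were called and 0 had an unadjusted p under 0.05. Without labelled male KO replicate 2, in which Vars2 was high, Vars2 was lower in males by limma (-0.44, adjusted p = 0.023). These contrasts reuse the libraries of the within-sex comparisons and are no separate evidence.

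Added up, the cytosolic transcripts were at their highest in labelled male KO. Their summed level was 2988, 3071 and 3032 TPM in male WT, 3234, 3293 and 3256 TPM in labelled male KO, 3215, 3220.1 and 3198 TPM in female WT and 3058, 3015 and 3031 TPM in labelled female KO. Every labelled male KO library lay above every other library, and male WT and labelled female KO overlapped. The mean was 3030.5 ± 41.7 TPM in male WT and 3261 ± 29.6 TPM in labelled male KO, and 3211 ± 11.8 TPM in female WT and 3035 ± 21.6 TPM in labelled female KO (SD, n = 3). With 3 libraries a side an exact permutation test cannot go below p = 0.1, so the sums are given as a description.

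The enzymes outside the complex summed to 1941, 2034 and 1999.6 TPM in male WT and 2249, 2252 and 2213 TPM in labelled male KO, without overlap. Those inside it summed to 1047, 1038 and 1033 TPM and 986, 1041 and 1043 TPM, and overlapped. Eprs, which is of the complex and was higher in labelled male KO, is not in this sum. The mitochondrial sum without Lars2 was 338, 334 and 323 TPM in male WT and 301, 347 and 318 TPM in labelled male KO, and 344, 337 and 337 TPM in female WT and 322, 307 and 337 TPM in labelled female KO. The male groups overlapped, while every female WT library lay above every labelled female KO library, the nearest by less than 1 TPM. After median-of-ratios scaling the female groups overlapped, at 339.1, 333.2 and 333.3 TPM in WT and 322.9, 310.8 and 334.6 TPM in labelled KO. The ratio of the cytosolic to this mitochondrial sum was 9.14 ± 0.282 in male WT, 10.2 ± 0.637 in labelled male KO, 9.46 ± 0.106 in female WT and 9.44 ± 0.408 in labelled female KO (SD, n = 3).

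**Figure D4:**
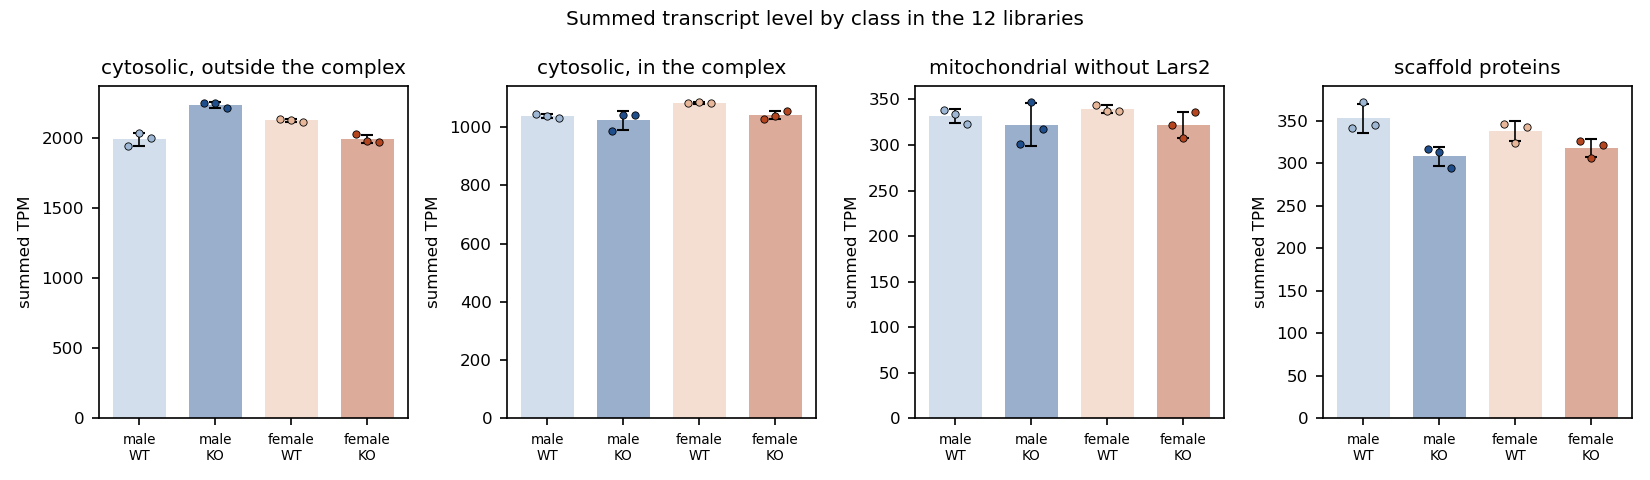
Summed TPM (vertical axes, from 0) of the cytosolic synthetases outside and inside the complex, the mitochondrial synthetases without Lars2 and the scaffold proteins in the 12 libraries, with bars for the mean of 3, lines for the SD and points for libraries. The enzymes outside the complex sum to 2238 TPM in labelled male KO against 1991 TPM in male WT, while the mitochondrial sums of the male groups overlap. Eprs is not in the sum inside the complex.

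Genes listed for uncharged-tRNA sensing and Atf4 were mostly higher in labelled male KO, while charging of tRNA itself was not measured. Of 18 genes of uncharged-tRNA sensing and Atf4, 13 rose in labelled male KO and 0 fell, where 10.7% of all genes rose, with a median log2 fold change of 0.40. The interaction passed for 14 of the 18, against 13.0% of all genes. Between the sexes, 8 of the 18 were lower in male than in female WT, against 6.56% of all genes, and 12 were higher in labelled male than in labelled female KO, against 8.17%. Part of this list, like the members, was chosen with results of these libraries known. The largest rises were those of Trib3, a pseudokinase that feeds back on Atf4 (limma, 1.37 ± 0.076, adjusted p = 4.28e-05), Chac1, which degrades glutathione (1.02 ± 0.057, adjusted p = 4.40e-05), Cebpb, a partner of Atf4 (0.95 ± 0.048, adjusted p = 3.15e-05), and Asns, the asparagine synthetase (0.84 ± 0.076, adjusted p = 4.38e-04). Atf4, named outside the rule, was at 204, 218 and 209 TPM in male WT, 365, 368 and 386 TPM in labelled male KO, 283, 289.9 and 278 TPM in female WT and 260.3, 259.6 and 259 TPM in labelled female KO. These groups did not overlap, and rose in the order male WT, labelled female KO, female WT and labelled male KO. Of the 7 members that passed the interaction, Gars and Lars had this order of means. Aars, Nars, Sars, Tars and Wars did not, and a link to Atf4 was not tested.

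In females 1 of the 18 was called, against 11.5% of all genes, and this was Atf4 itself, which fell (limma, -0.13 ± 0.027, adjusted p = 0.0285). Of the 18 female changes 16 were negative, with a median log2 fold change of -0.106 against -0.023 for all genes tested. By limma 8 of the 18 had an unadjusted p under 0.05, against 3399 of all 12504 genes. The kinase gene Eif2ak4 was at 13.3, 12.8 and 14.3 TPM in male WT and 12.01, 14.5 and 13.2 TPM in labelled male KO (limma, -0.028 ± 0.095, adjusted p = 0.867). Impact, an inhibitor of Gcn2 activation, rose in males from 29.96 ± 0.604 to 41.8 ± 0.95 TPM (SD, n = 3; limma, 0.47 ± 0.052, adjusted p = 0.00115). Ddit3 lies opposite Mars, the methionyl enzyme, on the other strand, but their transcripts shared no stretch of at least 70 bases at 95% identity. Shorter shared stretches were not counted.

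**Figure D5:**
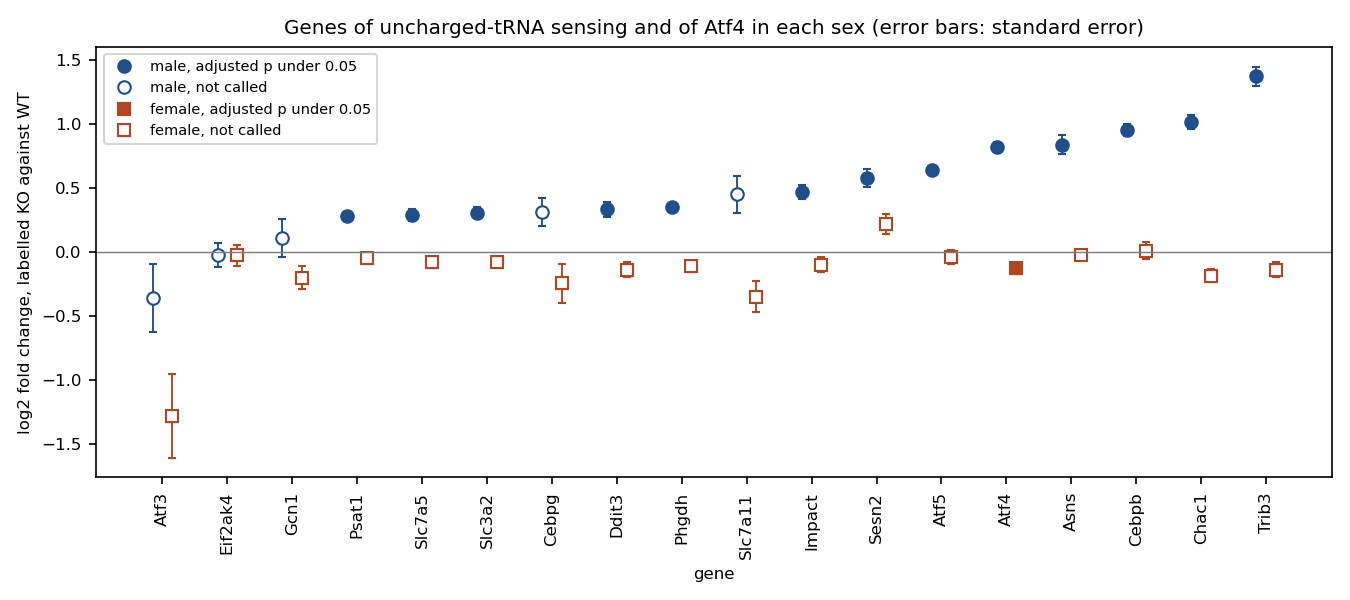
Log2 fold change (vertical axis) of 18 genes of uncharged-tRNA sensing and Atf4 between labelled KO and WT in males (blue circles) and in females (orange squares), with standard errors, ordered by the male change. Filled symbols have an adjusted p under 0.05: 13 genes are filled above 0 in males, and Atf4 alone is filled in females, below 0.

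Neighbouring steps of charging and elongation were mostly not called in males, where 21.6% of all genes were called. Of the 12504 genes tested, 4383 had an unadjusted p under 0.05 by limma. Amidation and formylation of mitochondrial tRNA had 0 of 4 called by limma and 1 with an unadjusted p under 0.05. Gatb, a subunit of the amidotransferase that makes glutaminyl-tRNA in mitochondria, had the largest value, at 9.81, 12.4 and 18.2 TPM in male WT and 8.59, 9.28 and 4.17 TPM in labelled male KO (limma, -0.81 ± 0.31, adjusted p = 0.111). Removal of wrongly attached or D-amino acids had 0 of 4 called by limma, selenocysteine tRNA 0 of 5, and tRNA end processing 0 of 6, with 0, 0 and 2 at an unadjusted p under 0.05. Cytosolic elongation had 0 of 6 called by limma and 2 at an unadjusted p under 0.05. In mitochondrial elongation and initiation 1 of 6 was called: Gfm1, a mitochondrial elongation factor, fell from 93.4 ± 0.868 to 76.8 ± 2.24 TPM (SD, n = 3; limma, -0.28 ± 0.042, adjusted p = 0.00417).

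In females, Trnt1, which adds the CCA end to tRNA, rose from 51.1 ± 0.685 to 60.7 ± 4.003 TPM (SD, n = 3; limma, 0.24 ± 0.056, adjusted p = 0.0388). Eef1b2, an exchange factor of cytosolic elongation, rose from 715 ± 23.1 to 786 ± 9.64 TPM (SD, n = 3; limma, 0.14 ± 0.03, adjusted p = 0.0305). Both were named because they were the single calls of their lists of 6 genes in females, where 11.5% of all genes were called.

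The promoters of the members were searched for the composite element TGATGNAA, to which Atf4 and C/EBP partners are known to bind, on both strands (TTNCATCA on the other). RefSeq windows of 250 bases before to 50 bases after the start on GRCm38.p6 were matched for 30 of the 40 members. The others included Hars2, Nars, Wars, Rars, Vars, Pars2, Lars, Hars and Cars. The element was present in 5 of 13 cytosolic members (38.5%), Aars, Gars, Iars, Tars and Yars, and in 0 of 14 mitochondrial and 0 of 3 scaffold members. Of all 27025 genes with a window, 4.51% held it, and of the 9396 tested genes with a window, 2.62%. It stood in 2 of the 3 windows of cytosolic members that rose in males (Aars and Gars, not Sars) and in 3 of the 10 windows of those not called (Iars, Tars and Yars).

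The 30 bases around 1 match in each of these 5 genes are given to show where it lies. They are written 5′ to 3′ on the strand of the gene, with the element in capitals, and in all but Yars the element reads on the other strand. Positions count from -1 before and 0 at the RefSeq start.
Aars, first base at 9, chr8:111033840-111033869, plus strand: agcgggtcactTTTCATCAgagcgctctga
Gars, first base at -30, chr6:55037960-55037989, plus strand: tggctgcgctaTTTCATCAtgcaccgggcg
Iars, first base at 7, chr13:49682126-49682155, plus strand: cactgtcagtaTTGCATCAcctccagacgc
Tars, first base at -15, chr15:11399655-11399684, minus strand: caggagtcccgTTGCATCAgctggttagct
Yars, first base at 3, chr4:129189895-129189924, plus strand: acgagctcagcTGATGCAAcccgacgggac
Each of these matches lies within 30 bases of the start. A match is a description of these letters and not of binding.

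Gars is shown in full, as the member with the largest male change and the largest difference between the sexes. The 250 bases before its RefSeq start, none of them in an annotated exon, hold the element near the 3′ end.
Gars, chr6:55037751-55038000, plus strand: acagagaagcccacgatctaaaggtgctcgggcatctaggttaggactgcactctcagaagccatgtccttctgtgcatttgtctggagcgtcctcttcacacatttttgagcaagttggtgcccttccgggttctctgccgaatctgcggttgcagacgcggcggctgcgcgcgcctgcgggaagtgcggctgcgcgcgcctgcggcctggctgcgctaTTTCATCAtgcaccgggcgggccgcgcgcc
Tars is shown beside it, since it held the element too but was called in females and in the interaction and not in males. Its sequence stops where the first annotated exon begins.
Tars, chr15:11399666-11399908, minus strand: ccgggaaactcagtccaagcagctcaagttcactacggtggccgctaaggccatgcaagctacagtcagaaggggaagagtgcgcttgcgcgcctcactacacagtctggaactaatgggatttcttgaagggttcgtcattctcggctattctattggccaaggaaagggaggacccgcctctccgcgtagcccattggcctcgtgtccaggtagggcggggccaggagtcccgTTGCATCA

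Other motifs were counted in the same way. CACGTG, the E-box, was in 4 of 13 cytosolic (Aars, Farsb, Iars and Tars) and 1 of 14 mitochondrial windows (Ears2), against 11.97% of the tested genes. CCGGAAG, an ETS motif, was in 5 of 13 cytosolic and 4 of 14 mitochondrial windows, against 20.8% of the tested genes. None of these motifs overlapped the composite element.

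Several members share sequence with other genes, which could move reads between them. Of the 40, 23 overlap another annotated gene, and 21 have a stretch of at least 70 bases at 95% identity or more in a transcript of another gene. Hars and Hars2 start head to head and share 195 bases. Gars, the member with the largest male change, overlaps no annotated gene. An Aars transcript of 5750 bases holds all 1326 bases of an Exosc6 transcript on the same strand. Exosc6 was listed at 0 in every library, so reads of Exosc6 could have been credited to Aars, which was not tested. For these members the values are those of the deposited table and remain uncertain where reads could be assigned to either gene.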

How the data were processed

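Polyadenylated RNA of 12 libraries from SV40-immortalised MEFs was sequenced by the study. The deposited values are TPM per gene, which the authors made with Salmon (version 1.10.1 per the submitters' processing notes, on GRCm38) before running DESeq2. Depth is unknown from TPM, since no counts were used here. Identifiers were matched to GENCODE vM21 (99.4% matched). The 12504 genes averaging 1 TPM or more were tested with limma 3.58.1 in R 4.3.3 after a log2(TPM + 1) transform, with its trend option, and called at a Benjamini-Hochberg adjusted p under 0.05. Fold changes are on the log2(TPM + 1) scale and understate changes of low genes. Within-sex and within-genotype comparisons used their 6 libraries, and the interaction used all 12. The test was checked on simulated data. Alternatives were a pseudocount of 0.1, no filter, a mean of 5 TPM, median-of-ratios and quantile scaling, no trend, 1 fit of all libraries, a replicate block, Eprs counted as cytosolic, each library left out and, added after seeing the data, Lars2 left out. Shared stretches were found with blastn 2.17.0. Promoter windows are RefSeq's. The values of 1 mitochondrial synthetase, which stays in the counts and medians of its list, and 1 promoter match are not reported here.

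The members and gene lists were chosen with earlier results of these data known. Values per library are given for called members of each class (up to 10 cytosolic and 5 mitochondrial by size of the male change, and 3 per class in females and in the interaction), the scaffold proteins, Eprs and Lars2. The 3 cytosolic members with the smallest male change and up to 4 genes per other list are named as well. Further names (Rars, Yars, Yars2, Cars2, Vars2, Wars2, Vars, Hars in females, Farsa, Tarsl2, Qars, Cars, Atf4, Eif2ak4, Impact, Trnt1, Eef1b2) were picked after their values were seen.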

Additional observations from a re-analysis of the deposited data

Results flagged for a closer look

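For 7 cytosolic synthetases the change under the KO label differed between males and females by the interaction test. The male minus female log2 fold change was 0.50 for Gars, 0.45 for Lars, 0.35 for Nars, 0.30 for Sars, 0.29 for Aars, 0.24 for Tars and 0.22 for Wars (limma, adjusted p from 9.77e-06 to 0.0444). In all 7 the male change was the more positive. In labelled male KO, every library exceeded every male WT library for 6 of the 7, and for Tars the male groups overlapped. These 6 are the genes already called in males, so the separation adds nothing to those calls. Male WT was the group with the lowest mean for 4 of them (Gars, Lars, Aars and Tars). Line, sex and genotype cannot be told apart.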

How the results depend on the processing

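The 6 male cytosolic calls became 5 to 6 with single libraries left out, the 7 interaction calls 6 to 7 and the 7 calls between labelled KO cells 6 to 7. In 1 fit of all libraries the male cytosolic count was 7, with Rars lower, and Aimp2 was lower as well. Gars, Lars, Aars, Wars and Nars kept their male call under all 14 alternatives, and Gars, Lars, Nars, Sars, Aars and Tars their interaction call under all 20. Sars lost its male call under 7 of the 14, among them no filter, no trend and the replicate block. Wars lost its interaction call under 13 of the 20, among them median-of-ratios scaling, quantile scaling and no trend. For the counts below, the cause was not tested. The mitochondrial count in males went from 0 to 1 without the filter (Cars2), without the trend (Mars2) and in 1 fit of all libraries (Yars2), and stayed at 0 with single libraries left out. The 4 female cytosolic calls became 0 with median-of-ratios scaling and without the trend. With single libraries left out none of the 4 was called, and the count was 0 to 1 because Vars was called without labelled female KO replicate 1. The female mitochondrial call became 0 in 1 fit of all libraries and 0 to 1 with single libraries left out. The 3 calls between WT cells became 1 without the trend, 5 in 1 fit of all libraries and 1 to 2 with single libraries left out. Between labelled KO cells the mitochondrial count was 0 to 1 with single libraries left out. Leaving out Lars2 changed no count of calls, and took the mitochondrial count at an unadjusted p under 0.05 between WT cells from 2 to 1. With 3 libraries a group and unknown depth, changes of low mitochondrial transcripts of the size seen for cytosolic ones may not be detectable.

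Replicate numbers did not pair the libraries (correlations of same-numbered deviations of -0.057 to 0.078). With the replicate block, 0 female cytosolic, 0 female mitochondrial and 1 WT cytosolic call were left, and Sars lost its male call.

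Small uncalled changes turned sign: Iars2 in males to 0.0050 and Eprs in females to 0.027 with median-of-ratios scaling, and Rars2 in males to -0.012 with quantile normalization. With single libraries left out, male changes ranged from -0.29 to 1.70e-04 (Fars2), -0.045 to 0.033 (Iars2), -0.53 to 0.040 (Lars2), -0.038 to 0.037 (Rars2), -0.040 to 0.079 (Tars2) and -0.28 to 0.19 (Vars2). Female ones ranged from -0.080 to 0.0035 (Aars2), -0.0013 to 0.046 (Dars), -0.021 to 0.013 (Eprs), -0.096 to 0.0031 (Mars), -0.12 to 0.053 (Nars2) and -0.18 to 0.054 (Rars2). Vars2 between labelled KO cells ranged from -0.44 to 0.034.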
